A study of Mus musculus with 4 samples.

Results

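The respiratory chain genes measured here were 107 of the 32285 genes in the deposited matrices, chosen by symbol as the subunits of complexes I to V encoded in the nucleus and in mitochondrial DNA. They were 84 nuclear subunits (36 of complex I, 4 of complex II, 8 of complex III, 19 of complex IV and 17 of complex V), 13 mitochondrially encoded subunits, 8 complex I assembly factors whose symbols begin with Ndufaf, the supercomplex factor Cox7a2l and the pseudogene symbol Ndufb1-ps. The symbol rule itself used no measured value, but it was set with earlier results of these data known. Of the 107 genes, 105 had at least 1 UMI (unique molecular identifier, 1 counted transcript molecule) in each library, and Cox7b2 and Cox8c had none in any cell kept.

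Cells were taken from mouse colon by positive selection for CD11b, the integrin Itgam of myeloid cells, and sequenced with droplet-based 3' single-cell RNA sequencing. The 4 groups were lamina propria (the connective tissue layer of the mucosa) and SILT (solitary isolated lymphoid tissues) of wild-type mice (Csf2+/+) and of mice lacking Csf2 (Csf2-/-), which encodes the myeloid growth factor GM-CSF. All groups also carried 1 copy each of the CX3CR1-GFP and CCR2-RFP reporter alleles, and no treatment or age was given. There was 1 library per group. The series design gives 5 mice without saying how their cells were divided or pooled, so no p-value was computed, and intervals cover counting error only.

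The cells kept, with at least 200 genes and at most 10% of UMIs from mt- genes, numbered 4439 in wild-type lamina propria, 1967 in Csf2-/- lamina propria, 7578 in wild-type SILT and 2368 in Csf2-/- SILT, with 18753355 to 64633109 UMIs per library. The median cell had 9961, 8892, 5816.5 and 7184 UMIs in that order. The limit on mt- UMIs bears on the genes described, and the barcodes above it were 12.3%, 7.83%, 3.97% and 6.67% of each library. Between libraries, 30 cell barcodes were shared. Among wild-type cells Csf2 itself had 2 UMIs in lamina propria and 24 in SILT. It had 0 in both Csf2-/- libraries, where 3 counts would have been 0.16 and 0.145 CPM (UMIs of a gene per 1000000 UMIs), so that the gene was too low in lamina propria to check the label there. The libraries also held many cells outside the CD11b selection: Itgam was at 276 to 407 CPM in macrophage-like cells but at 0 to 4.61 CPM in blood endothelial-like and 0 to 6.19 CPM in pericyte-like cells.

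The respiratory chain of the inner mitochondrial membrane passes electrons from NADH (complex I) or succinate (complex II) through ubiquinone, complex III and cytochrome c to oxygen at complex IV, and the proton gradient so built drives ATP synthase, complex V. Most subunits are nuclear genes whose proteins are imported, a small core is transcribed from mitochondrial DNA, and complex II is wholly nuclear. Some complex IV subunits have alternative isoforms used in particular tissues, among them Cox4i2 and Ndufa4l2, which are known from hypoxia-responsive and vascular cells, and the muscle-type Cox6a2, Cox7a1 and Cox8b. Cells were clustered without the respiratory chain and other mt- genes, and 19 of 30 clusters were named from marker genes into 12 classes. Levels are given as CPM over the summed UMIs of a class in a library. Because the 3' method counts each molecule once at its end, levels are not scaled by gene length.

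Nuclear subunits together made up between 1.20% and 1.58% of the UMIs of the 8 classes with at least 20 cells in wild-type lamina propria, and the 13 mitochondrial subunits between 2.83% and 4.46%. Macrophage-like cells stood at the low end of nuclear to mitochondrial balance. Their nuclear UMIs per mitochondrial UMI were 0.283 in wild-type lamina propria, 0.363 in Csf2-/- lamina propria, 0.621 in wild-type SILT and 0.494 in Csf2-/- SILT. In both lamina propria libraries this was the lowest ratio of any class, while in SILT B cell-like cells were lower, at 0.511 and 0.401. Monocytes give rise to many gut macrophages. The monocyte-like class joined a cluster led by Chil3 (940 cells) to a cluster led by Cd300e (199 cells). It had 0.494, 0.578, 1.20 and 0.915 in the same order, so in each library the 2 classes differed by more than the counting intervals.

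**Figure D1:**
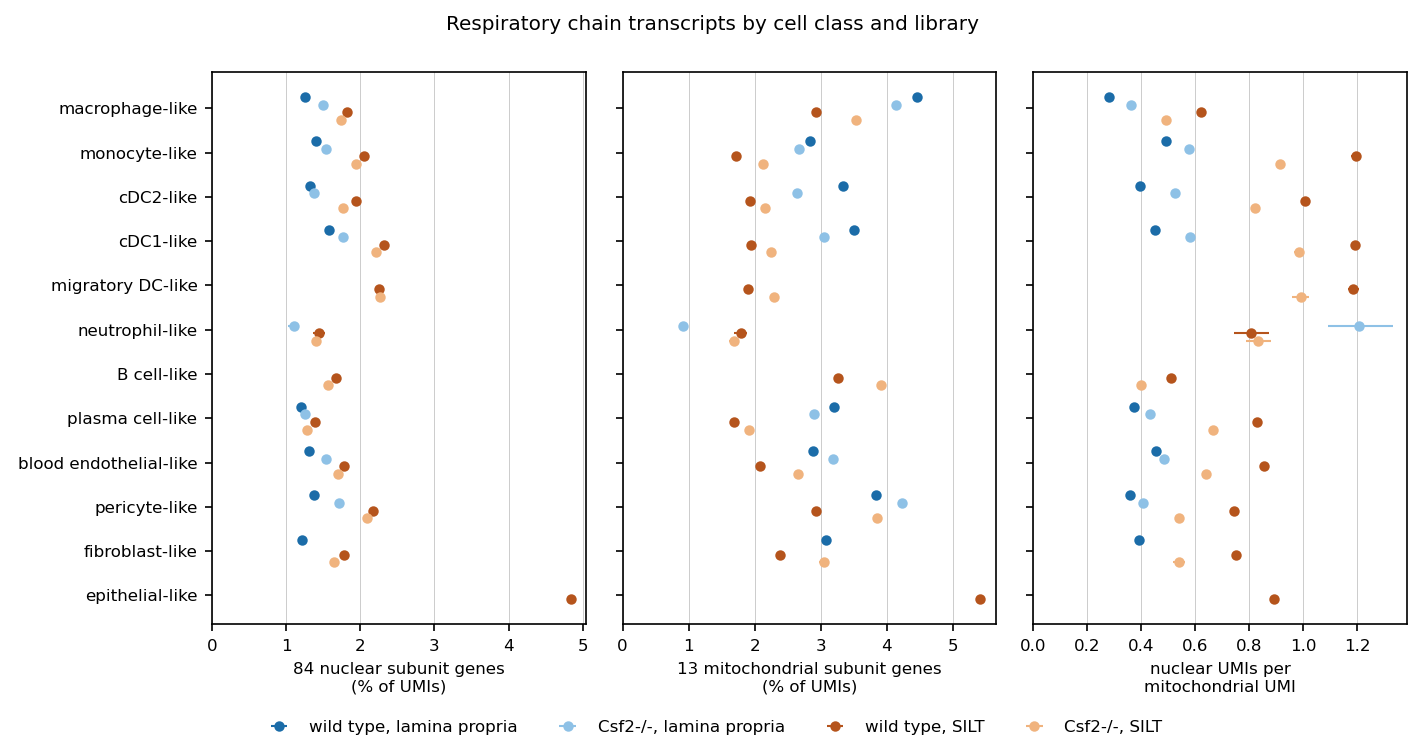
Share of UMIs from 84 nuclear subunit genes, share from 13 mitochondrial subunit genes, and their ratio (x axes) in each cell class (y axis). Each point is 1 class in 1 of the 4 libraries with its exact binomial interval, often narrower than the point; SILT libraries lie to the right of lamina propria libraries for nuclear shares and, apart from neutrophil-like cells, for ratios, and epithelial-like cells, at 4.84% and 5.41%, are highest in both shares.

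The difference between monocyte-like and macrophage-like cells lay in the mitochondrially encoded genes. All 13 were lower in monocyte-like cells in every library, and 10, 7, 12 and 12 of them were at least 1.5-fold lower (wild-type lamina propria, Csf2-/- lamina propria, wild-type SILT, Csf2-/- SILT). Over all genes with a mean of at least 10 CPM, 25.4%, 23.6%, 25% and 21.9% were that much lower. The median log2 ratio over the 13 genes was -0.73, -0.76, -0.86 and -0.82. For the 77 of 84 nuclear subunits with a mean of at least 10 CPM it was 0.07, 0.01, 0.08 and 0.04. mt-Cytb, the only mitochondrially encoded subunit of complex III, was at 3067, 3258, 2984 and 3251 CPM in macrophage-like cells and at 1645, 1793, 1593 and 1774 CPM in monocyte-like cells, so the ranges of the 2 classes did not overlap. Glycolysis genes went the other way, with 8 of 17, 7 of 17, 6 of 16 and 7 of 17 at least 1.5-fold higher in monocyte-like cells, where 15.5%, 14.9%, 14.7% and 14.8% of all genes were. Median depth by library was 9031 to 11620 UMIs in macrophage-like and 6821 to 10810 in monocyte-like cells, and its part in the difference was not tested.

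Epithelial-like cells, nearly all from wild-type SILT (126 cells there), carried 4.84% nuclear and 5.41% mitochondrial subunit UMIs. In them Cox4i1, the common isoform of the regulatory subunit 4 of complex IV, was at 2068 CPM, and Cox5a, another complex IV subunit, at 1325 CPM. Uqcr10, a small subunit of complex III, was at 1239 CPM and Atp5g1, 1 of the 3 genes for subunit c of ATP synthase, at 987 CPM. At the other end, neutrophil-like cells (27 in Csf2-/- lamina propria, 24 in wild-type SILT and 37 in Csf2-/- SILT) had 1.10%, 1.44% and 1.40% nuclear subunit UMIs, with 0.912%, 1.79% and 1.68% mitochondrial. Plasma cell-like cells had the lowest nuclear share of any class in 3 libraries, lamina propria (1.20%) and SILT (1.40%) of wild type and SILT of Csf2-/- mice (1.28%). Their cluster was led by Jchain and immunoglobulin genes, with a median of 30318 UMIs per cell. A low share of UMIs there need not mean few subunit transcripts per cell. Summed over libraries, plasma cell-like cells had the highest Ndufa4, a complex IV subunit long assigned to complex I. It was at 624, 668, 845 and 671 CPM in the library order above.

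Over the 12 classes, with the 4 libraries summed, the 80 nuclear subunits that reached 50 CPM in at least 1 class had a median log2 range between classes of 2.23, against 3.38 over 6760 genes with the same minimum. The 8 nuclear subunits with the widest range were Cox4i2 (9.06), Ndufa4l2 (8.87), Cox7a1 (6.26), Cox6b2 (4.39), Ndufa4 (4.36), Cox5a (3.71), Ndufc1 (3.71) and Ndufa5 (3.66). The first pair were highest in pericyte-like cells, and Ndufa4 and Cox5a were lowest in the same class. Ndufc1 and Ndufa5, both complex I subunits, were highest in epithelial-like and lowest in neutrophil-like cells, at 36.6 and 31.7 CPM. The neutrophil-like class held 104 cells with a median of 2526.5 UMIs, so these low ends rest on few molecules.

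Pericyte-like cells, the mural cells around capillaries, carried much Ndufa4l2 and little of its relative Ndufa4. Ndufa4l2 (chr10:127514967-127517154, GRCm38, plus strand) was at 664 CPM in wild-type lamina propria, 967 in Csf2-/- lamina propria, 944 in wild-type SILT and 909 in Csf2-/- SILT. Ndufa4 (chr6:11900292-11907497, minus strand) was at 23.1, 19.8, 83.4 and 68.8 CPM in the same cells. Ndufa4l2 thus made up 96.6% (exact binomial interval 95.5 to 97.6), 98.0% (96.8 to 98.8), 91.9% (89.8 to 93.7) and 93.0% (89.2 to 95.7) of the UMIs of the pair. In blood endothelial-like cells it made up 2.17%, 1.37%, 1.78% and 2.35%, and in macrophage-like cells 0.588%, 0.232%, 0.504% and 0.428%. The pericyte-like values stood apart from every value of the other classes in all 4 libraries. The class rests on 270, 156, 178 and 54 cells. Although neither gene was used in clustering, both Ndufa4l2 and Cox4i2 were among the 10 leading genes of the pericyte-like cluster, so these levels describe the class and are no independent test of it.

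Cell by cell, 78.9%, 86.5%, 73.6% and 85.2% of pericyte-like cells had Ndufa4l2 without Ndufa4, at median depths of 6730, 5673, 3897.5 and 4367 UMIs. Ndufa4l2 was found in 87.4%, 94.2%, 88.8% and 90.7% of pericyte-like cells, and in 2.14%, 0.76%, 2.12% and 1.88% of macrophage-like cells at median depths of 11620, 9614, 9031 and 10234 UMIs, read here as background in a class that should lack the gene. After thinning every cell to 1000 UMIs, with 17, 5, 11 and 2 shallower cells left out, 48.2%, 64.2%, 56.9% and 59.6% of pericyte-like cells kept an Ndufa4l2 UMI and 1.58%, 1.32%, 5.39% and 1.92% an Ndufa4 UMI. The higher Ndufa4 of pericyte-like cells in SILT went with more transcripts of other classes in wild-type SILT: summed blood endothelial markers there were at 570, 402, 806 and 1032 CPM in the library order above, with none of the 9 markers at 0, and Lyz2, a myeloid lysozyme gene, at 133, 130, 404 and 167 CPM. Their part in the Ndufa4 level was not tested. In Csf2-/- SILT 1 cell held much of the Ndufa4, which was at 30.9 CPM without the cell with most UMIs. With the called doublets kept, Ndufa4 in Csf2-/- lamina propria was at 31.3 CPM, and with no limit on mt- UMIs it was at 133 CPM in wild-type SILT, all still below Ndufa4l2.

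**Figure D2:**
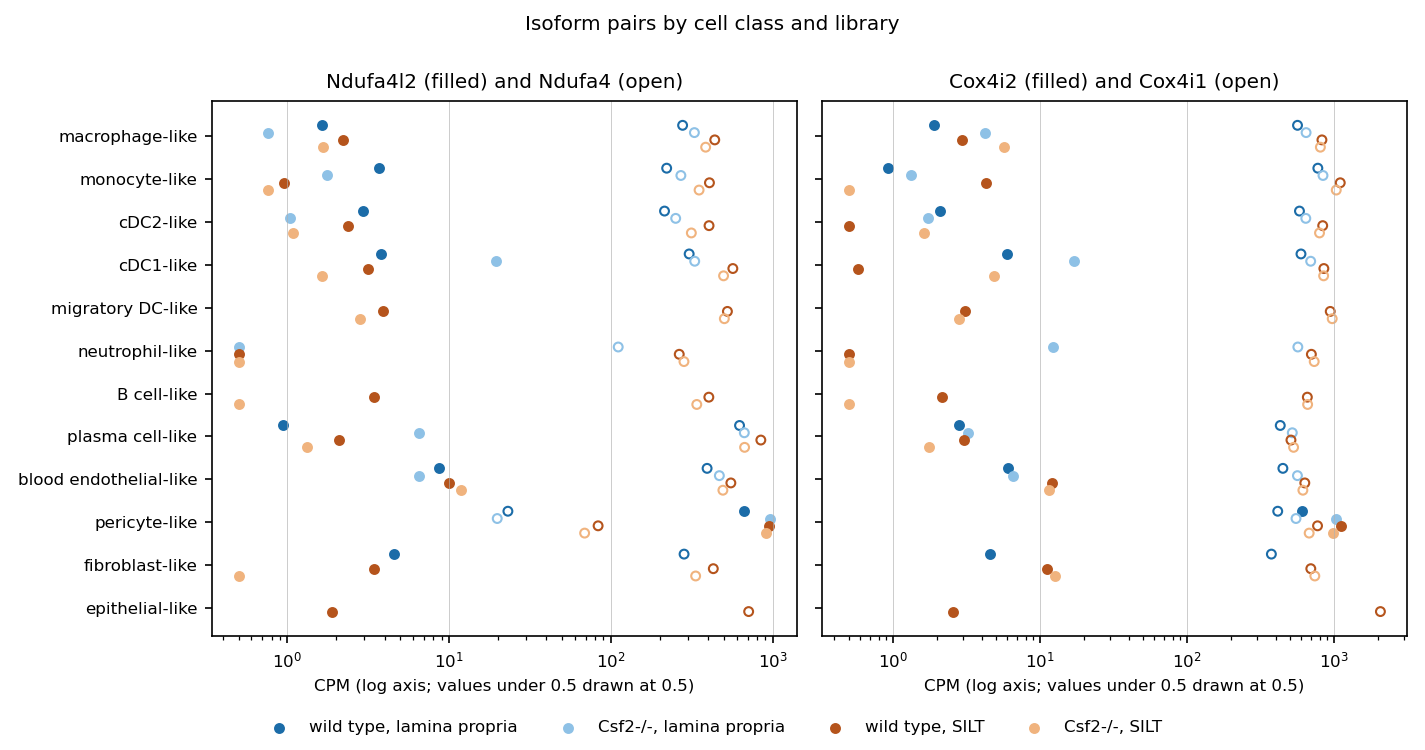
CPM on a log axis of Ndufa4l2 with Ndufa4 and of Cox4i2 with Cox4i1, isoform filled and partner open, by class and library. In pericyte-like cells Ndufa4l2 (664 to 967 CPM) lies above Ndufa4 (19.8 to 83.4 CPM) in each library, the reverse of the other classes shown, while Cox4i1 stays between 414 and 772 CPM beside Cox4i2.

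Cox4i2 was found together with its partner. Cox4i2 (chr2:152754173-152765037, plus strand) was at 607, 1029, 1121 and 978 CPM in pericyte-like cells, and Cox4i1 (chr8:120668222-120674207, plus strand) at 414, 551, 772 and 678 CPM. Cox4i2 made up 59.4% (57.1 to 61.7), 65.1% (62.6 to 67.6), 59.2% (56.7 to 61.7) and 59.1% (54.4 to 63.6) of the pair. Cox4i1 in blood endothelial-like cells was at 449, 564, 633 and 614 CPM, so its range overlapped that of pericyte-like cells. Both isoforms were found in 75.6%, 89.7%, 83.7% and 77.8% of pericyte-like cells, whereas both Ndufa4l2 and Ndufa4 were found in 8.52%, 7.69%, 15.2% and 5.56%. Cox4i2 was found in 2.14%, 3.42%, 2.86% and 5.38% of macrophage-like cells.

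Compared with blood endothelial-like cells in the same library, 7, 11, 15 and 12 of 79, 80, 79 and 80 nuclear subunits were at least 1.5-fold higher in pericyte-like cells, where 23.3%, 26.1%, 24.1% and 27.9% of all genes were. Another 5, 7, 5 and 5 were at least 1.5-fold lower, where 20.8%, 22.7%, 21.5% and 25.1% of all genes were. Each of these shares of the subunits was below that of all genes. Passing in all 4 libraries were 4 higher genes, Cox4i2, Ndufa4l2, Cox6b2 (the alternative form of complex IV subunit 6B) and Ndufs7 (an iron-sulfur subunit of complex I), and 4 lower genes, Ndufa4, Cox5a, Ndufa8 and Ndufc2 (the last pair accessory subunits of complex I). Cox5a (chr9:57521274-57532426, plus strand) was at 70.4, 83.8, 158 and 188 CPM in pericyte-like and 269, 311, 394 and 345 CPM in blood endothelial-like cells, so the ranges did not overlap. It was 3.83-, 3.71-, 2.50- and 1.83-fold lower, and as with Ndufa4 the gap was smaller in SILT. Ndufa8 was 2.0-, 1.99-, 1.69- and 1.80-fold lower, and Atp5j, the coupling factor 6 subunit of ATP synthase, 1.95-, 1.75-, 1.57- and 1.48-fold lower.

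Promoter windows are shown for the 4 genes that were lower in pericyte-like cells in all 4 libraries. Cox4i2 and Ndufa4l2 were not among the symbols matched in the promoter table. Each runs from 250 bases before to 50 after a RefSeq transcription start (build GRCm38.p6). Capitals mark matches on either strand to 3 motifs tied to respiratory chain promoters: GCGCANGCG for NRF1, CCGGAAG for ETS factors such as GABPA, and AAGATGGCG for YY1, none of which contains another.
Ndufa4, chr6:11907401-11907700, minus strand: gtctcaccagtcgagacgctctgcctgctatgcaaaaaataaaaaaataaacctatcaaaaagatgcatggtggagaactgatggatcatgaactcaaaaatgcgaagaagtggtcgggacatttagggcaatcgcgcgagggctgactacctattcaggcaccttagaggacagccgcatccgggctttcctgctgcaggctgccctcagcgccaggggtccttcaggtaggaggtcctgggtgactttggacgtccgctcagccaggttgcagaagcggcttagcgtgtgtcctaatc
Cox5a, chr9:57520982-57521281, plus strand: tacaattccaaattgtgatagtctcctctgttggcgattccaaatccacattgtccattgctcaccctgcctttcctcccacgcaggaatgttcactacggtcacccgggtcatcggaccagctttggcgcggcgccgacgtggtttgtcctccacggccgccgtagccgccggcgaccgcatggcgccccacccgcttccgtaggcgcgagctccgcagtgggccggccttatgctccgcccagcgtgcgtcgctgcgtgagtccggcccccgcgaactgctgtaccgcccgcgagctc
Ndufa8, chr2:36049289-36049588, minus strand: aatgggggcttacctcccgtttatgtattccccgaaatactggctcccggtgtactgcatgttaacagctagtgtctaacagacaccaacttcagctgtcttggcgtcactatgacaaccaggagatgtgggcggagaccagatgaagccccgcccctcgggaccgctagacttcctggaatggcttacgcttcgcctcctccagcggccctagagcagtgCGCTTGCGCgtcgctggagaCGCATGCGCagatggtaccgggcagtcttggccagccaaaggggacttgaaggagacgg
Ndufc2, chr7:97399753-97400052, plus strand: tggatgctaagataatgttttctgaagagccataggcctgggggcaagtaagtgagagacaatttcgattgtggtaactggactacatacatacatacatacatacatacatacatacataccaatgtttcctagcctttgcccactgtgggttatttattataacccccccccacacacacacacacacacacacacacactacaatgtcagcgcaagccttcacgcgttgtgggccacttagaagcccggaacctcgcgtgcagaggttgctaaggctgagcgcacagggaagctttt

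The windows of Ndufa4, Cox5a and Ndufc2 held none of these letters, and Ndufa8 held 2 NRF1 matches. By symbol, 75 of the 107 genes were in the RefSeq table, in 80 windows. The NRF1 letters were in 28.8% of those windows and 6.25% of all 32851 windows, the ETS letters in 23.8% and 8.86%, and the YY1 letters in 10% and 1.40%. At least 1 of the 3 was in 51.2% and 14.8%. A match describes the letters of the window and was not tied to any level measured here.

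Clusters left unnamed because they carried markers of both vascular classes had both members of each pair. In the cluster led by Abcc9 and Lamc3 (415, 180, 336 and 138 cells), Ndufa4l2 made up 48.3%, 50.9%, 52.9% and 55.0% of its pair and Cox4i2 35.0%, 35.8%, 41.0% and 40.8%. That cluster was deep, with a median of 13657 UMIs against 5501 in the pericyte-like cluster, and whether its barcodes held 1 cell or 2 was not tested. A second such cluster, led by Scgb3a1 and Stmn2, had 18.3%, 19.7%, 21.3% and 21.4% Ndufa4l2.

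The remaining alternative subunits were low. Cox7a1, the muscle-type form of complex IV subunit 7A, reached 139 CPM in epithelial-like cells of wild-type SILT, found in 81.0% of them, beside 1007 CPM of the common Cox7a2. Over all libraries summed it was at 15.8 CPM in pericyte-like cells. Cox6b2 was at 38.9, 43.0, 56.4 and 39.9 CPM in pericyte-like cells and at 1.74, 3.47, 3.40 and 3.17 CPM in blood endothelial-like cells. With the libraries summed it was highest in fibroblast-like cells, at 59.1 CPM. It was also at 44.8, 40.8, 60.9 and 56.9 CPM in cDC2-like cells, a dendritic cell class, at 11.3% to 12.4% of the pair with Cox6b1. Cox6a2 did not pass 5 CPM in macrophage-like cells (1.30, 4.58, 1.91 and 4.26 CPM), and Cox8b had no UMI in macrophage-like cells of 3 libraries and was highest in epithelial-like cells, at 4.97 CPM over all libraries.

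Between tissues of wild-type mice, macrophage-like cells of SILT had more nuclear and fewer mitochondrial respiratory chain transcripts. Nuclear subunits took 1.81% of UMIs in SILT and 1.26% in lamina propria, a ratio of 1.44 (1.43 to 1.45). Mitochondrial subunits took 2.92% and 4.46%, 1.53-fold lower in SILT. The ratio of the 2 balances was 2.20 (2.18 to 2.21, Woolf interval). These values come from 943 and 888 cells with 9445764 and 11574986 UMIs. The cluster led by Lyve1 held 631 and 806 of the cells, and the cluster led by Mmp13 312 and 82. Unnamed clusters in which macrophage markers were the most numerous are not in these values. Among them, the cluster led by Il22ra2 held 999 cells in SILT and 5 in lamina propria. The cluster led by Ccl4 held 460 and 362, and the cluster led by Retnla 62 and 144.

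Of the 77 nuclear subunits past the minimum, 37 were at least 1.5-fold higher in SILT and 0 lower, with a median log2 ratio of 0.57. Over all 7961 genes 7.16% were that much higher and 21.3% that much lower, with a median of -0.23. The 3 highest were Cox5a (204 CPM in lamina propria, 425 in SILT), Ndufc2 (121 and 243) and Cox5b (179 and 348), with Cox5a and Cox5b being complex IV subunits of the matrix side. Cox5a was 2.08-fold higher (1.98 to 2.19), Ndufc2 2.0-fold (1.87 to 2.14) and Cox5b 1.94-fold (1.84 to 2.05). By complex, the median was 0.59 for 36 subunits of complex I, 0.51 for 8 of complex III, 0.59 for 12 of complex IV and 0.48 for 17 of complex V.

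Complex II, the succinate dehydrogenase that also serves the tricarboxylic acid cycle, had a median of -0.11 over its 4 subunits, which did not share a direction. Sdha, the flavoprotein, was at 105 CPM in lamina propria and 73.5 in SILT, and the membrane anchor Sdhc at 84.5 and 60.3, which made them 1.43- and 1.40-fold lower. The iron-sulfur subunit Sdhb was 1.57-fold higher (1.44 to 1.71), at 83.4 and 131 CPM. The anchor Sdhd was at 53.0 and 63.8 CPM. Scaling by TMM factors, which moved the median of all genes by 0.18 on the log2 scale, gave a median of 0.74 and 55 of 77 nuclear subunits at least 1.5-fold higher. It also changed the split over all genes from 570 higher and 1693 lower (25.2% of calls higher) to 1042 and 809 (56.3%).

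**Figure D3:**
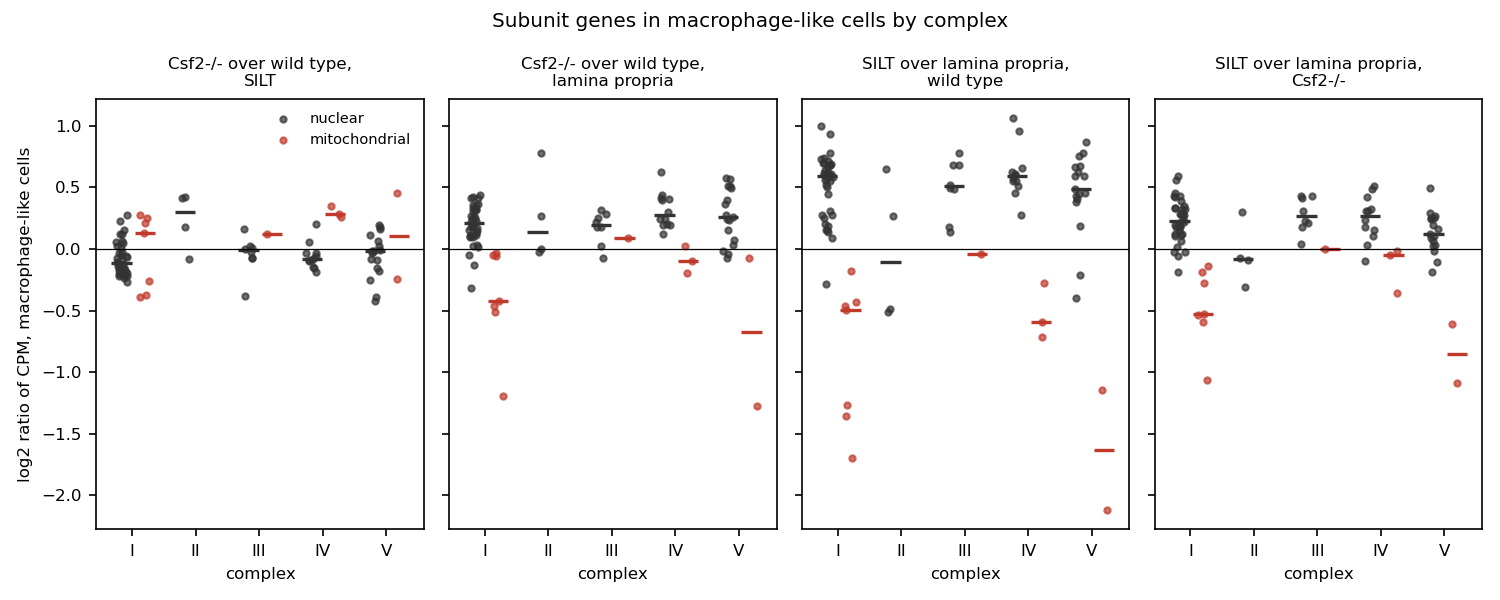
Log2 ratio of CPM (y axis) of each subunit gene with a mean of at least 10 CPM in macrophage-like cells, by complex, for the 4 comparisons. Nuclear subunits are black and mitochondrial red, bars are medians; in wild-type SILT over lamina propria the nuclear medians of complexes I, III, IV and V lie between 0.48 and 0.59 and that of complex II at -0.11.

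The same tissue comparison in Csf2-/- mice gave the same direction with smaller values. Nuclear subunits took 1.75% of macrophage-like UMIs in SILT (372 cells) and 1.5% in lamina propria (263 cells), a ratio of 1.16 (1.15 to 1.18). Mitochondrial subunits took 3.54% and 4.14%, and the ratio of balances was 1.36 (1.34 to 1.38). Of 77 nuclear subunits 1 was at least 1.5-fold higher and 0 lower (2.07% and 4.2% of all genes), with a median of 0.21 against -0.08 over all genes. It was Ndufv3, a small flavoprotein subunit of complex I, at 119 CPM in lamina propria and 180 in SILT. Ndufv2 (59.5 and 87.5 CPM) and Cox5a (268 and 381 CPM) were next. With TMM factors 3 nuclear subunits were that much higher, and the calls over all genes went from 33% to 58.6% higher.

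The shift was not limited to macrophage-like cells. In wild type the balance was higher in SILT in 20 of 20 clusters with at least 20 cells in both libraries, by 1.75- to 2.75-fold. It was 2.42 in monocyte-like, 2.53 in cDC2-like, 1.88 in blood endothelial-like, 2.08 in pericyte-like and 2.21 in plasma cell-like cells. At least 1.5-fold higher nuclear subunits numbered 32 of 77 in monocyte-like cells (8.49% of all genes), 34 of 77 in cDC2-like (7.35%), 12 of 76 in blood endothelial-like (3.63%) and 50 of 80 in pericyte-like cells (16.3%). In Csf2-/- mice it was higher in SILT in 15 of 16 clusters. The exception was the neutrophil-like cluster, at 0.691 (0.617 to 0.773), with 37 and 27 cells. In that cluster C1qa, a gene high in macrophage-like cells, was at 1730 CPM in Csf2-/- SILT. It was far lower in Csf2-/- lamina propria, with 3 UMIs, and Lyz2 was lower there too. The part of macrophage transcripts in this exception was not tested.

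**Figure D4:**
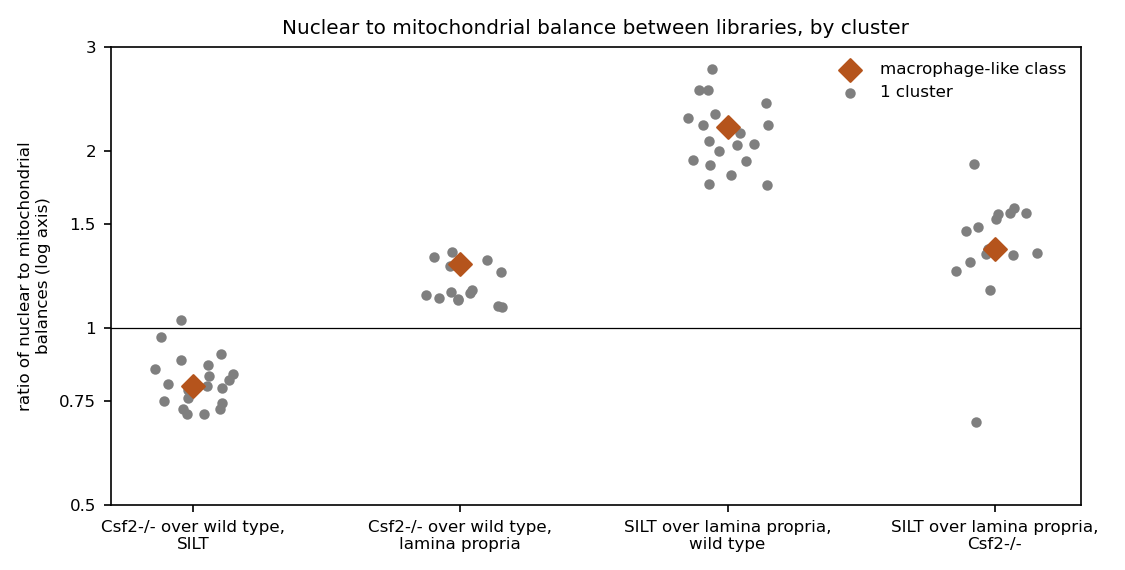
Ratio of nuclear to mitochondrial balances between 2 libraries on a log axis, with 1 point per cluster and a diamond for the macrophage-like class. All 20 clusters lie above 1 for wild-type SILT over lamina propria, 14 of 14 above 1 for Csf2-/- over wild type in lamina propria, and 20 of 21 below 1 for the same genotypes in SILT.

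Between genotypes, the direction of the balance differed by tissue. In lamina propria, nuclear subunits in macrophage-like cells took 1.5% of UMIs in Csf2-/- and 1.26% in wild type, a ratio of 1.19 (1.18 to 1.21). Mitochondrial subunits took 4.14% and 4.46%, and the ratio of balances was 1.28 (1.27 to 1.30). The median log2 ratio of 77 nuclear subunits was 0.24, with 2 at least 1.5-fold higher and 0 lower, beside 5.25% and 7.38% of all genes and a median of -0.05. With TMM factors 4 were that much higher. The 2 called on the CPM scale were Sdhd, at 53.0 CPM in wild type and 91.1 in Csf2-/- (1.72-fold, 1.47 to 2.0), and Cox6b2, at 15.6 and 24.0 CPM. Atp5k and Atp5mpl, small membrane subunits of ATP synthase, were 1.49- and 1.48-fold higher. The cluster led by Lyve1 held 184 of the Csf2-/- and 806 of the wild-type cells, and the cluster led by Mmp13 79 and 82. The median was 0.13 in the cluster led by Mmp13 alone and 0.36 with a limit of 20% mt- UMIs.

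In SILT, the balance was lower in Csf2-/- macrophage-like cells, 0.494 against 0.621, a ratio of 0.795 (0.787 to 0.804). The clusters led by Lyve1 and Mmp13 held 186 and 186 of the Csf2-/- cells and 631 and 312 of the wild-type cells. The difference lay mainly in the mitochondrial share, 3.54% against 2.92%, a ratio of 1.21 (1.20 to 1.22). The nuclear share was 1.75% against 1.81%. Of 77 nuclear subunits 0 were at least 1.5-fold higher and 0 lower, where 5.67% and 2.66% of all genes were. Their median log2 ratio was -0.07, and its direction was not stable: it was 0.013 with a limit of 20% mt- UMIs, 0.030 in the cluster led by Lyve1 and -0.40 in cells chosen by at least 2 UMIs of the 3 C1q genes. The calls over all genes went from 68.1% to 51.2% higher with TMM factors.

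Single genes moved little in SILT. The lowest were Atp5c1 and Atp5f1, the gamma and b subunits of ATP synthase, at 263 and 281 CPM in wild type and 196 and 215 in Csf2-/- (1.34- and 1.31-fold lower), and mt-Nd4l. The highest were mt-Atp6, at 3436 and 4716 CPM, with Sdhd (63.8 and 85.6) and Sdhc (60.3 and 80.4). Cox4i1, at 827 and 807 CPM, differed by less than its counting interval (ratio 0.98, 0.94 to 1.02).

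Counts of the mitochondrially encoded genes did not change by 1 common factor between tissues. These genes derive from long shared precursors and some overlap, so a count per gene need not be the level of a separate transcript. In macrophage-like cells mt-Cytb of wild type was at 3067 CPM in lamina propria and 2984 in SILT, and mt-Co1, the catalytic subunit of complex IV, at 8445 and 6970. mt-Atp6, the channel subunit of ATP synthase, was at 7600 and 3436 CPM, 2.21-fold lower in SILT. mt-Atp8, which overlaps mt-Atp6, was at 315 and 72.7 CPM, 4.33-fold lower, but overlapping genes cannot be told apart by reads at the overlap. mt-Nd3 and mt-Nd2, both of complex I, were 3.25- and 2.41-fold lower, and mt-Nd6, the subunit encoded on the other strand, 2.55-fold lower at 143 and 56.0 CPM. Of the 13 genes 7 were at least 1.5-fold lower and 0 higher, where 21.3% and 7.16% of all genes were, and 5 were lower with TMM factors.

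**Figure D5:**
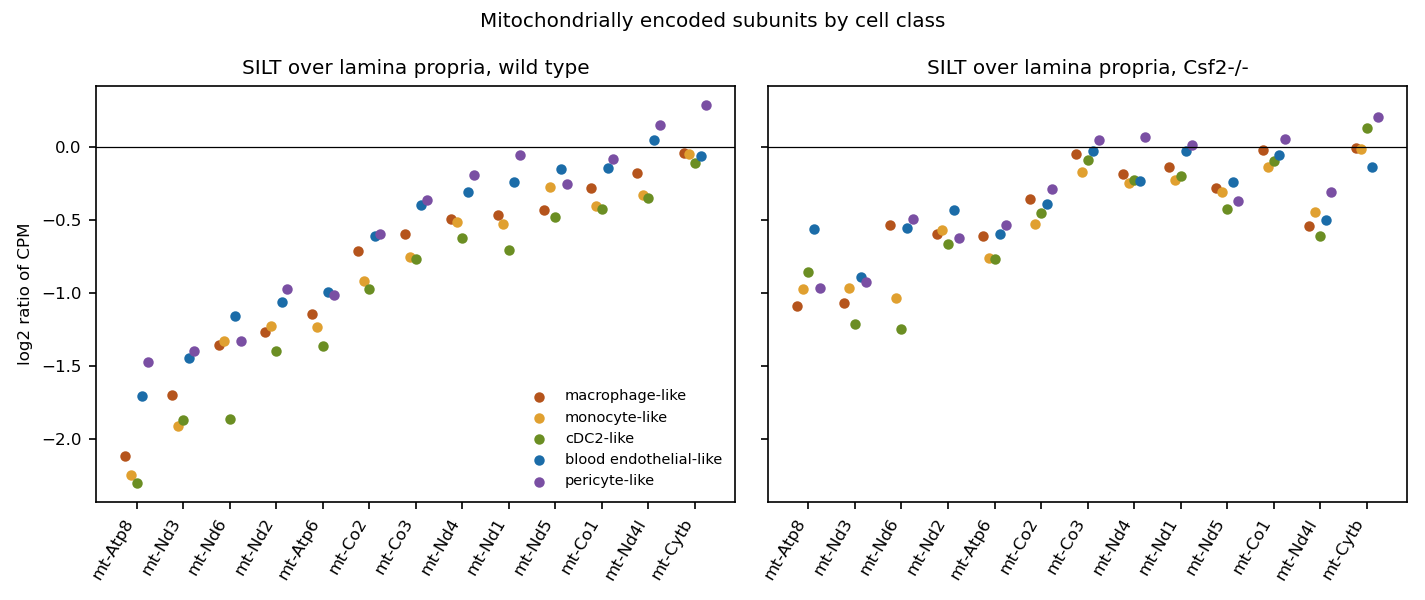
Log2 ratio of CPM between SILT and lamina propria (y axis) for the 13 mitochondrially encoded subunits (x axis, in the order of macrophage-like cells in wild type), with 1 point per cell class. mt-Atp8 and mt-Nd3 are lowest and mt-Cytb near 0 in each of the 5 classes in wild type, apart from pericyte-like cells, where mt-Cytb is 1.22-fold higher.

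The same genes were low in the other classes. mt-Atp6 in SILT over lamina propria of wild type had ratios of 0.43 in monocyte-like, 0.39 in cDC2-like, 0.50 in blood endothelial-like and 0.49 in pericyte-like cells, and mt-Nd3 0.27, 0.27, 0.37 and 0.38. mt-Cytb had 0.97, 0.93, 0.96 and 1.22. In Csf2-/- mice mt-Nd3 was again low, at 0.48 in macrophage-like, 0.51 in monocyte-like and 0.54 in blood endothelial-like cells. Between the lamina propria libraries, mt-Atp8 was also lower in Csf2-/- than in wild type, 2.42-fold in macrophage-like cells (315 and 130 CPM), with mt-Nd6 2.29-fold lower (143 and 62.5 CPM). Since all cells of a group share 1 library, group and library cannot be told apart.

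Other measures also differed between the libraries. Of the ribosomal share and the marker sums given here, only the plasma cell markers were higher in both SILT than in both lamina propria libraries. Median UMIs per cell kept were lower in both SILT libraries, at 9961, 8892, 5816.5 and 7184 in the library order above. So were the barcodes above the limit on mt- UMIs, at 12.3%, 7.83%, 3.97% and 6.67%. Ribosomal protein genes took 9.68%, 11.8%, 11.6% and 12.3% of macrophage-like UMIs in the library order above. The summed markers of epithelial cells, the class richest in nuclear subunits, were at 5.01, 3.43, 61.3 and 2.37 CPM in macrophage-like cells, and those of plasma cells at 314, 344, 971 and 1232 CPM. The part of any of these measures in the shift was not tested.

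The other mitochondrial gene lists showed how far the pattern reached in macrophage-like cells. Each count in the lists is for wild-type SILT over lamina propria, where 7.16% of all genes passed 1.5-fold upward and 21.3% downward, so several lists of few called genes lie near those shares. Of 76 mitochondrial ribosomal protein genes, 23 were at least 1.5-fold higher and 0 lower in wild-type SILT than in lamina propria, with a median log2 ratio of 0.41. Mrps21 (88.3 CPM in lamina propria, 163 in SILT) and Mrpl17 (56.8 and 104) led. Of 9 electron carrier genes 2 were higher, among them cytochrome c, Cycs, at 51.9 and 101 CPM (1.95-fold, 1.76 to 2.16). Cycs was also 1.80-fold higher (1.54 to 2.09) in Csf2-/- than in wild-type lamina propria. Assembly factors outside the symbol rule had 3 of 20 higher and a median of 0.23, and of the 5 Ndufaf factors past the minimum 2 were higher.

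Genes of the tricarboxylic acid cycle, which supplies the electrons, had a median of -0.03 with 0 of 14 higher and 1 lower (Dlst, 63.0 CPM in lamina propria and 40.8 in SILT). Glycolysis genes had a median of -0.15, with 1 of 15 higher, Gapdh, at 389 and 649 CPM. Both medians lie closer to 0 than the 0.18 by which TMM factors moved the median of all genes. Of 9 regulators of nuclear respiratory genes 3 were at least 1.5-fold lower, beside 21.3% of all genes, including Nrf1, which binds the promoter letters described above, at 30.7 and 17.5 CPM, and the coactivator Ppargc1b at 14.8 and 7.20 CPM. Of 6 genes of mitochondrial transcription and replication 2 were lower, the DNA polymerase Polg (2.16-fold lower, at 13.9 CPM in SILT) and Lrpprc, which stabilises mitochondrial transcripts (35.2 and 21.7 CPM). Hypoxia response genes had 1 of 6 higher and 1 lower, and mitochondrial antioxidant genes 1 of 9 higher, Prdx5, at 238 and 471 CPM, and 1 lower, Sod1, at 148 and 92.8 CPM. Handling stress genes had 1 of 14 higher, Atf3 (274 and 488 CPM), and 2 lower.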

How the data were processed

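Per the labels' protocols the libraries were made with the 10x Genomics single-cell 3' version 2 chemistry. Cell Ranger 2.1.1 and mm10 are named in the submitters' processing notes, while the file headers name version 6.0.0. The deposited values are whole-number UMI counts, not normalized, by gene and barcode, for barcodes already called by the authors (lowest total 500 to 502 UMIs). Free RNA was not subtracted.

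The respiratory chain genes and the gene lists were chosen with earlier results of these data known. Barcodes with at least 200 genes and at most 10% mt- UMIs were kept, and 52, 7, 136 and 10 doublets called by Scrublet (scanpy 1.11.5, expected rate 0.8% per 1000 cells) were left out in wild-type lamina propria, Csf2-/- lamina propria, wild-type SILT and Csf2-/- SILT. Cells were clustered together on 2000 variable genes without members or mt- genes, 30 principal components and 15 neighbours (leidenalg 0.10.2, igraph 0.11.9, resolution 1). Naming a cluster needed at least 3 markers of 1 of 23 classes to be 2-fold higher than elsewhere and in at least 10% of its cells, and mixed or shallow clusters stayed unnamed. The class led by cell-cycle genes was kept with cDC1-like cells.

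Counts were summed per class and library with at least 20 cells and divided by the class's UMIs. With 1 library per group a gene counts as called at 1.5-fold among genes with a mean of at least 10 CPM, and no p-value was computed. Intervals at the 95% level (scipy 1.17.1) are exact Poisson for levels, exact binomial for shares, exact conditional binomial for ratios and Woolf's for ratios of balances. Only those for ratios of single genes were run on simulated counts. The counts were Poisson draws, the model these intervals assume, so the run cannot show spread between cells or libraries. All these intervals cover counting error only. For a median over genes, the interval used to judge other settings came from order statistics of the genes and is a spread between genes. TMM factors came from edgeR 4.0.16 in R 4.3.3. Named genes were the mitochondrial subunits, the isoform pairs, complex II, the 3 highest and 3 lowest members per comparison among those averaging 50 CPM or more, the 8 with the widest range over classes, and up to 2 members of each list. Genes named for passing in all 4 libraries between pericyte-like and endothelial-like cells, Atp5j, Uqcr10 and Cox6b2 were chosen after their values were seen. Many subunits have processed pseudogenes, so reads shared with them may be miscounted. The sequence tables held 75 of the 107 members.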

Additional observations from a re-analysis of the deposited data

Results flagged for a closer look

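In 7 of 7 named classes compared in both tissues the nuclear to mitochondrial balance moved one way between genotypes in lamina propria and the opposite way in SILT. Each genotype effect compares 1 library with 1 library, and the difference between the 2 effects was not tested. The part of sex in these effects was not tested either. In macrophage-like cells the ratio of Csf2-/- to wild type was 1.28 in lamina propria and 0.795 in SILT. In monocyte-like cells it was 1.17 and 0.765, in cDC2-like cells 1.32 and 0.816, and in cDC1-like cells 1.28 and 0.826. The cDC1-like class joined a cluster led by cell-cycle genes to a cluster led by Xcr1. In lamina propria these held 74 and 17 wild-type and 37 and 33 Csf2-/- cells. In SILT they held 231 and 84 wild-type and 47 and 39 Csf2-/- cells. The part of this mix in the cDC1-like ratios was not tested. Cells outside the myeloid lineage showed the same directions: blood endothelial-like 1.07 and 0.748, pericyte-like 1.14 and 0.728, and plasma cell-like 1.16 and 0.803.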

How the results depend on the processing

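With 1 library per group, no replicate could be left out and no paired analysis was possible because each group has a single library. Every value below therefore describes 4 libraries. Depth limits genes of few UMIs, and thinning cells to 1000 UMIs also moved sums over many genes. Class balances changed by 0.852- to 1.12-fold and nuclear shares by 0.897- to 1.06-fold. In macrophage-like cells, the median log2 ratio of nuclear subunits and the ratio of nuclear to mitochondrial balances were recomputed for the 4 comparisons, given here as Csf2-/- over wild type in SILT (A) and in lamina propria (B), and SILT over lamina propria in wild type (C) and in Csf2-/- (D). Of the medians, 60 stayed within the interval of the main median over the subunit genes, 14 moved and 2, both in A, reversed. That interval is a spread between genes and not counting error. Of the balances, 36 stayed within the counting interval, 24 moved and none of these 60 reversed. The causes were not tested, but cells chosen by C1q UMIs need not belong to the macrophage-like clusters.

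The medians were 0.013 (A, reversed) and 0.36 (B) with a limit of 20% mt- UMIs, 0.35 (B) with none, 0.27 (B) for CPM outside mt- and ribosomal protein genes, -0.14 (A), 0.74 (C) and 0.30 (D) with TMM factors, and -0.40 (A), 0.19 (B) and 0.83 (C) in cells with at least 2 C1q UMIs.

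The balances were 0.817 (A), 1.23 (B), 1.99 (C) and 1.32 (D) with a limit of 5% mt- UMIs, 2.05 (C) and 1.27 (D) with 20%, and 0.781 (A), 1.31 (B), 2.08 (C) and 1.24 (D) with none. They were 1.32 (B), 2.17 (C) and 1.32 (D) with cells thinned to 1000 UMIs, 2.16 (C) as a mean over cells, 1.38 (D) at Leiden resolution 0.5, and 0.757 (A), 2.35 (C) and 1.40 (D) in cells with at least 2 C1q UMIs.

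The 2 macrophage-like clusters were examined apart after the data had been seen. The cluster led by Lyve1 had medians of 0.030 (A, reversed), 0.34 (B) and 0.61 (C) and balances of 0.852 (A), 1.30 (B) and 2.05 (C). The cluster led by Mmp13 had medians of -0.11 (A), 0.13 (B) and 0.28 (D) and balances of 0.713 (A), 1.12 (B) and 2.15 (C). Leaving out barcodes shared between libraries was also added after the data had been seen. Over all classes, the nuclear share moved beyond its counting interval in 65 of 259 recomputations and the balance in 129 of 259, and 4 of 48 isoform levels in pericyte-like cells moved.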
